A study of Homo sapiens with 6 samples.

Results

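The genes described are 10 transcriptional targets of the ERK pathway, namely the phosphatases DUSP4, DUSP5 and DUSP6, the inhibitors SPRY2, SPRY4 and SPRED1, the transcription factors ETV4, ETV5 and EGR1, and PHLDA1. They were taken by symbol from a table of 23569 genes, and all 10 were found. RNA-seq was done on TFK1, a cancer cell line established from a carcinoma of the extrahepatic bile duct. Negative control cells (oeNC, n = 3 libraries) were compared with cells that overexpress STUB1 (oeSTUB1, n = 3 libraries), a chaperone-associated E3 ubiquitin ligase that is also known as CHIP. According to the methods of the study, stable cells were made by lentiviral transduction, and both groups are labelled as having no treatment. The sources used here name no separate transductions or culture days, so the libraries of a group may come from 1 transduced population, and the p-values then measure only the spread between libraries, which may be technical.

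Growth factor receptors of the tyrosine kinase class switch on RAS, which activates RAF, MEK and finally the ERK kinases. Active ERK enters the nucleus and phosphorylates transcription factors, among them ELK1, which sits with serum response factor on CArG boxes and drives immediate early genes such as EGR1 within minutes. ERK also raises ETV4 and ETV5, ETS factors that carry the response further, and it induces its own brakes, since DUSP phosphatases remove the activating phosphates of MAP kinases and Sprouty and Spred proteins hold back the signal upstream of ERK. The mRNA level of such genes is widely used as a readout of how active the pathway is. In bile duct cancers FGF receptors, which feed this pathway, are known to carry activating changes.

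Expression was given as FPKM, that is fragments divided by the length of the gene and by the size of the library, so levels can be compared between genes. Over the 6 libraries the mean level was highest for DUSP4 (29.2 FPKM), followed by ETV4 (19.5), PHLDA1 (15.6), DUSP5 (14.3), ETV5, SPRED1 (4.55), DUSP6 (3.26), SPRY4 (1.91), SPRY2 (1.66) and EGR1 (1.23). In this order the ranges over the libraries were separate between DUSP4 and ETV4 and between ETV5 and SPRED1, and the other neighbours overlapped over the 6 libraries. Part of this overlap came from the pooling of both groups. DUSP5 exceeded ETV5 in 6 of 6 libraries, and ETV4 lay above PHLDA1 in every oeNC library but had the lower mean in oeSTUB1 (15.9 against 17.9 FPKM). SPRED1 lay above DUSP6 in every library but oeNC replicate 3 (4.96 against 6.02 FPKM). All 10 genes passed the filter of a mean of at least 0.1 FPKM and were tested.

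The start regions of EGR1, DUSP6 and PHLDA1 are shown because these genes stood highest in a single control library, as described further on. Each window holds the 250 bases before the transcription start that RefSeq gives on GRCh38.p14, read 5′ to 3′ on the strand of the gene, and capitals mark matches to the motifs that were searched. The EGR1 window is chr5:138465229-138465478 on the plus strand, the DUSP6 window chr12:89352502-89352751 on the minus strand and the PHLDA1 window chr12:76031777-76032026 on the minus strand. The GENCODE annotation (release 29), used below for gene coordinates, begins DUSP6 and PHLDA1 further upstream. These 2 windows therefore lie inside the gene ranges given below.
EGR1: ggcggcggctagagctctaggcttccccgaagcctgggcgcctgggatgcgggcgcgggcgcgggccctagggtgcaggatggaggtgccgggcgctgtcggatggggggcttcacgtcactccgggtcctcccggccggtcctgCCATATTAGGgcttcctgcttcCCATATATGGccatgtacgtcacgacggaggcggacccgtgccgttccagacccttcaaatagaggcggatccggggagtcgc
DUSP6: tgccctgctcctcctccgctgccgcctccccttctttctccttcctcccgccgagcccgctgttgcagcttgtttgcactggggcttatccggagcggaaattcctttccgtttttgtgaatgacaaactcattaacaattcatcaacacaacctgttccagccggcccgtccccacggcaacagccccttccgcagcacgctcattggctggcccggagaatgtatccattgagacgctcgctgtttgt
PHLDA1: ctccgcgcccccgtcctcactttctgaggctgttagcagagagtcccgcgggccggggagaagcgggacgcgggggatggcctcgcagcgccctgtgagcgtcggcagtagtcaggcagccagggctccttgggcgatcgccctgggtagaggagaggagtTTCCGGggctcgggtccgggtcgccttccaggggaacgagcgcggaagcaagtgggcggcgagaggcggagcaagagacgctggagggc
The capitals in EGR1 are 2 CArG boxes, the first from 105 to 96 and the second from 83 to 74 bases before the start. A CArG box was found in 407 of 35116 such windows of all genes (1.16%), and at least 2 of them in 11 windows (0.0313%). The capitals in PHLDA1 are an ETS motif, CCGGAA on the opposite strand, from 89 to 84 bases before the start. The same letters were found from 142 to 137 bases before a start of SPRY2, and in 14.5% of all windows. No shorter or variant ETS site was searched, so such sites would be in lower case in the windows shown. The DUSP6 window held no match to any motif searched. The other motifs were the AP-1 site TGANTCA (6.57% of all windows), the CRE TGACGTCA (1.65%) and the CIC sites TGAATGAA (1.40%) and TGAATGGA (0.832%), all searched on both strands, with no match in the 8 windows available for 6 of the 10 genes. A match is a description of letters in a window and not evidence of binding.

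Before the groups are compared, 2 libraries have to be described. The library totals lay between 33106564 and 36744521 fragments, so depth was similar. The oeSTUB1 replicate 2 differed from the others of its group over all genes, with a chi-square per gene of 71.1 and 76.7. The other pairs of libraries within either group gave 3.37 to 9.82. None of the 10 genes was outside the central 95% of all genes in that library. The oeNC replicate 3 gave 9.82 and 8.41 with the other controls, against 3.37 between oeNC replicates 1 and 2. The pair of oeSTUB1 replicates 1 and 3 gave 9.44. The ERK-responsive genes were among those in which oeNC replicate 3 stood apart, beside stress response genes given at the end. Each of the 10 genes was highest in oeNC replicate 3 among the 3 control libraries, which was true of 42.9% of all tested genes, and each was lowest in oeNC replicate 1. The log2 ratio of oeNC replicate 3 to the mean of the other 2 control libraries had a median of 0.42 over the 10 genes and of 0.02 over all tested genes, and 3 of the 10 genes lay above the upper bound (0.70) of the central 95% of all genes.

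**Figure D1:**
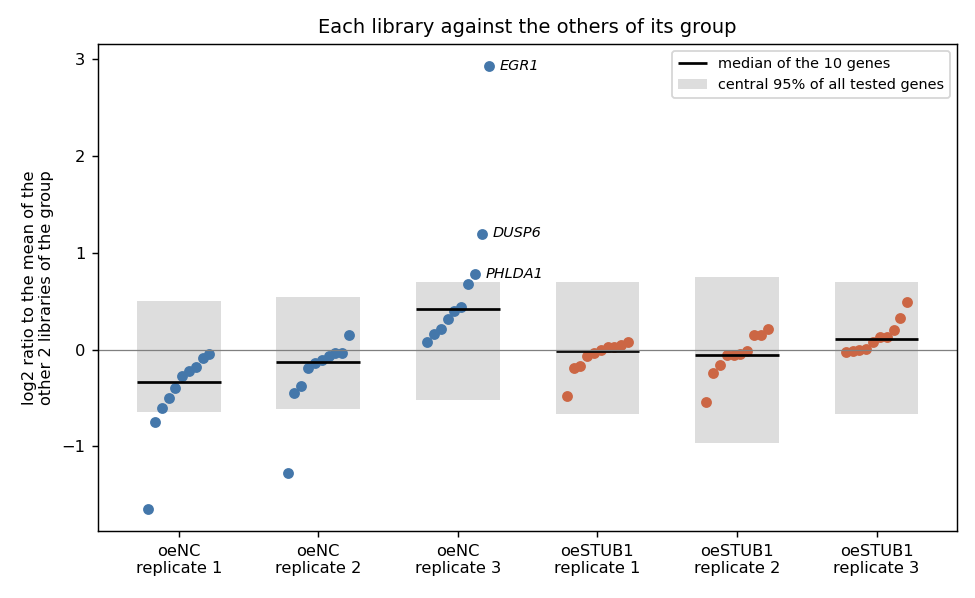
Log2 ratio of each library to the mean of the other 2 libraries of its group (y axis, log2(FPKM + 0.1) scale) for the 10 genes (points), with their median (black line) and the central 95% of all 15353 tested genes (grey). In oeNC replicate 3 all 10 points are above 0 and EGR1, DUSP6 and PHLDA1 lie above the grey band, whereas in oeNC replicate 1 all 10 are below 0.

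EGR1, a zinc finger transcription factor of the immediate early class, showed the largest excess in oeNC replicate 3 of all 15353 tested genes. Its level was 0.395 and 0.487 FPKM in oeNC replicates 1 and 2 and 4.01 FPKM in oeNC replicate 3, a ratio of 9.08 to the mean of the other 2 control libraries. These values rest on 43, 53 and 462 fragments, and the 95% Poisson intervals of 0.286 to 0.532, 0.365 to 0.638 and 3.65 to 4.39 FPKM, which cover counting error only, leave a wide gap. DUSP6, a cytoplasmic phosphatase specific to ERK, ranked 13th among the 11375 genes whose mean reached 1 FPKM, with a ratio of 2.34. PHLDA1, a protein with a pleckstrin homology-like domain, ranked 48th (ratio 1.72) and SPRY4 ranked 69th (ratio 1.64). The excess was small for SPRED1 (ratio 1.16) and ETV5 (1.06), with ETV4 between them, so it was spread unevenly over the 10 genes. In the oeSTUB1 group no library had such an excess, and the medians of the 10 genes lay between -0.05 and 0.10 on the log2 scale.

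The same library was high for other genes that respond within minutes. All 7 immediate early genes examined (FOS, FOSB, JUN, JUNB, IER2, ATF3 and NR4A1) were highest in oeNC replicate 3 among the controls, with a median log2 ratio of 0.67. JUN, an AP-1 subunit, was at 4.09, 4.48 and 11.3 FPKM in oeNC replicates 1 to 3. Of 11 further ERK-responsive genes 10 were highest in it (median 0.32), with EPHA4 as the exception. For the 15 genes of the RAS-RAF-MEK-ERK cascade, which are not themselves classed as fast targets, this was so for 5 (median -0.00). The part of this library in each group comparison is given by values with and without it.

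**Figure D2:**
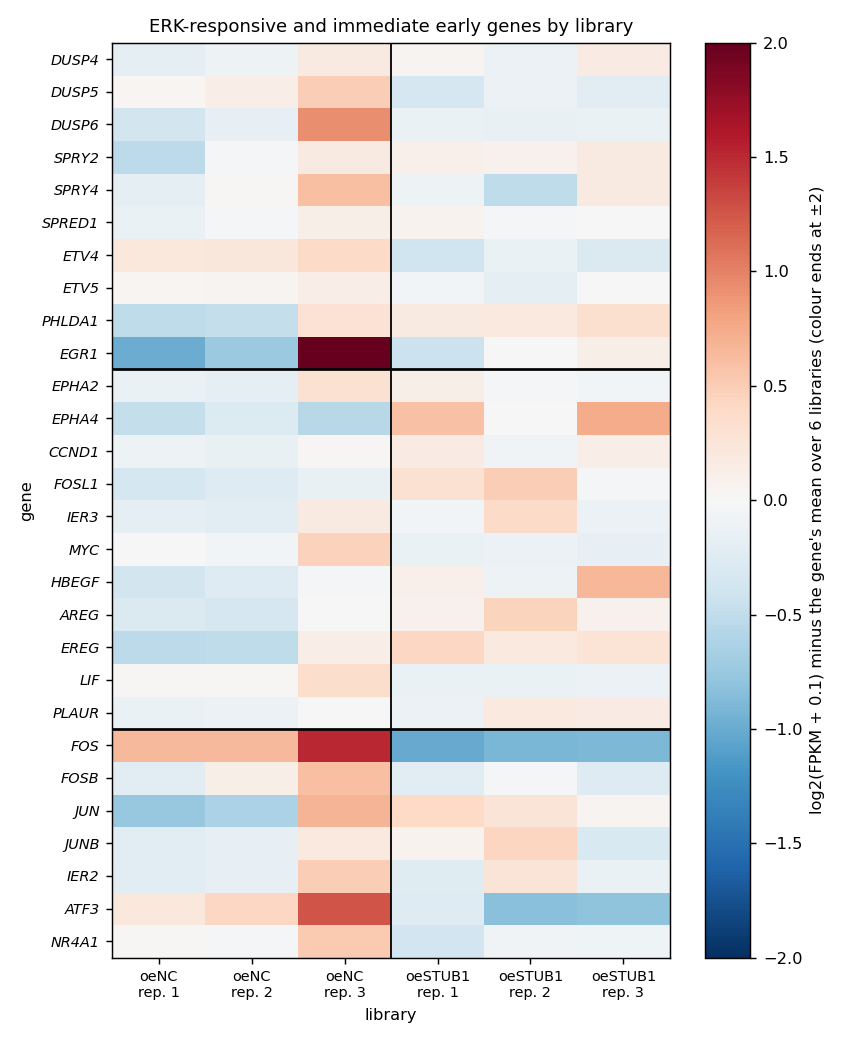
Expression of the 10 genes (top block), 11 other ERK-responsive genes (middle) and 7 immediate early genes (bottom) in the 6 libraries, as log2(FPKM + 0.1) minus the mean of the gene (colour, ending at ±2). The column of oeNC replicate 3 is red for most genes. FOS, ATF3, ETV4 and, more faintly, DUSP5 are among those red in all 3 oeNC columns and blue in all 3 oeSTUB1 columns.

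STUB1 itself averaged 66.1 ± 7.70 FPKM in oeSTUB1 libraries against 32.3 ± 1.23 FPKM in oeNC libraries (SD, n = 3 each), which is 1.03 on the log2 scale (SE 0.097, limma adjusted p = 0.00064). Its exons share 983 bases with JMJD8 on the opposite strand, beside a recovered STUB1 length of 1429 bases. Whether counting used strand is not given in the sources used here. Biliary epithelial markers summed to 7419 to 7996 FPKM in oeNC and 4724 to 6263 FPKM in oeSTUB1 libraries, mostly from KRT8 and KRT18, and 4 of 7 fell and 1 rose at an adjusted p under 0.05. KRT19, a defining keratin of bile duct cells, was under 1 FPKM in every oeNC library (0.374 to 0.529) and at 2.51 to 3.41 FPKM in oeSTUB1. Markers of fibroblasts summed to 1.28 to 2.32 FPKM in oeNC and 2.05 to 3.92 FPKM in oeSTUB1 and those of endothelium to at most 0.231 FPKM, and of these 10 genes COL1A1 alone passed 1 FPKM in any library. Of the 4 leukocyte markers CD68 and CD14 gave nearly all of a sum of 31.5 to 33.2 FPKM in oeNC and 24.0 to 25.3 FPKM in oeSTUB1. PTPRC, which marks leukocytes, and CD3E, which marks T cells, stayed under 1 FPKM in all libraries. The part of the epithelial markers in the results below was not tested. A lower level in a bulk sample can mean fewer cells that express a gene or less RNA per cell, which cannot be told apart.

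Whether STUB1 overexpression was accompanied by a change in ERK output was examined by comparing oeSTUB1 with oeNC in all 6 libraries. Of the 10 genes ETV4 fell, none rose and 9 did not pass the test, and no fold change exceeded 1 on the log2 scale in either direction. Over all 15353 tested genes 7.01% were called higher and 6.59% lower in oeSTUB1 at an adjusted p under 0.05, so 0 and 1 of 10 were near the background. The values of oeSTUB1 lay all below those of oeNC for DUSP5, ETV4 and ETV5 and all above for none, whereas over all tested genes the groups were separated in this way for 17.3% downwards and 21.5% upwards. The median log2 fold change was -0.19 over the 10 genes and 0.02 over all tested genes. Without oeNC replicate 3 these medians were 0.11 and 0.03, ETV4 was again lower (background 3.11%) and PHLDA1 was called higher (background 3.67%).

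**Figure D3:**
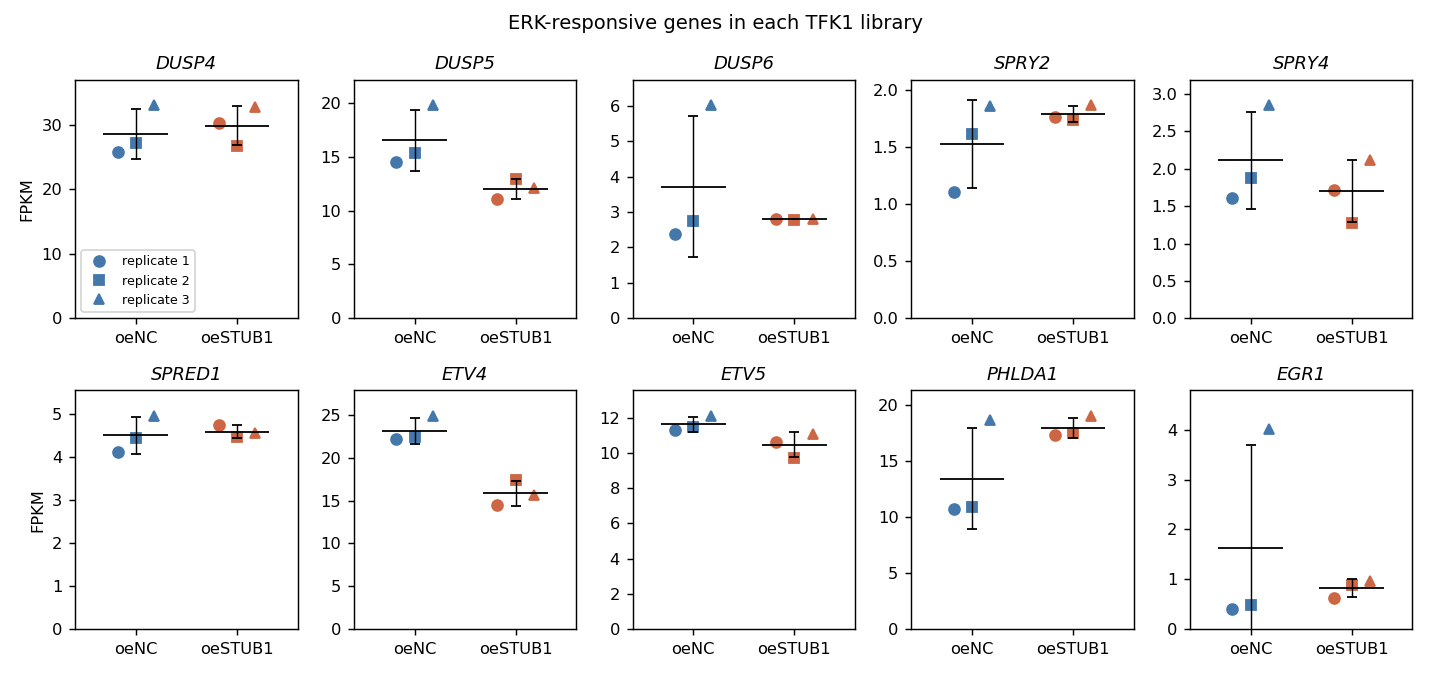
FPKM (y axes, each from 0) of the 10 genes in each library of oeNC (blue) and oeSTUB1 (orange), with marker shape for the replicate number, a line for the mean and bars for the SD (n = 3). ETV4 shows separated groups (14.5 to 17.4 against 22.2 to 24.9 FPKM), and EGR1, DUSP6 and PHLDA1 each show oeNC replicate 3 far above the other control libraries.

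ETV4 and ETV5 are ETS factors of the PEA3 subfamily that are induced by FGF and ERK signalling. ETV4 (GRCh38 chromosome 17, from 43527844 to 43579620, minus strand, GENCODE release 29) was at 22.2, 22.4 and 24.9 FPKM in oeNC and at 14.5, 17.4 and 15.7 FPKM in oeSTUB1. The highest oeSTUB1 value lay below the lowest oeNC value. The mean fell from 23.2 ± 1.52 to 15.9 ± 1.47 FPKM (SD, n = 3 each), a log2 fold change of -0.55 (SE 0.095, 95% interval -0.77 to -0.33, limma adjusted p = 0.0088). The call held when any 1 library was left out, with adjusted p-values from 0.0012 to 0.047, the latter without oeNC replicate 3. An exact permutation test of the FPKM values gave p = 0.10, below which groups of 3 cannot go. Its exons share 68 bases with DHX8 on the opposite strand, and whether counting used strand is not given in the sources used here.

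ETV5 was at 11.3, 11.5 and 12.1 FPKM in oeNC and at 10.6, 9.69 and 11.1 FPKM in oeSTUB1. The groups did not overlap (exact permutation p = 0.10), but the gap between 11.1 and 11.3 FPKM was small. The log2 fold change was -0.15 (SE 0.084, 95% interval -0.35 to 0.04, limma adjusted p = 0.27). Its exons share 164 bases with DGKG on the same strand.

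The 3 phosphatases gave 3 different pictures. DUSP5, a nuclear phosphatase that acts on ERK, lies on chromosome 10 from 110497838 to 110511544 on the plus strand. It was at 14.5, 15.4 and 19.8 FPKM in oeNC and at 11.1, 12.9 and 12.1 FPKM in oeSTUB1. All oeSTUB1 values lay below all oeNC values (exact permutation p = 0.10), and the log2 fold change of -0.45 (SE 0.13, 95% interval -0.75 to -0.15) missed the threshold with an adjusted p of 0.056 from limma. It was called without oeSTUB1 replicate 2 (-0.50, limma adjusted p = 0.026), with median-ratio scaling (-0.47, adjusted p = 0.043), with quantile normalization (-0.49, adjusted p = 0.037) and with limma-voom on recovered fragments (-0.48, adjusted p = 0.039). Without oeNC replicate 3, where DUSP5 was highest, the value was -0.32 (limma adjusted p = 0.14). Nor was it called without oeNC replicate 1 (limma adjusted p = 0.077), oeNC replicate 2 (0.13), oeSTUB1 replicate 1 (0.13) or oeSTUB1 replicate 3 (0.11). It also missed the threshold without a trend (limma adjusted p = 0.096), without a filter (0.093) and with a replicate block (0.065). The filter of a mean of 1 FPKM (0.058) and pseudocounts of 1 (0.056) and 0.01 (0.058) gave no call either.

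DUSP6 lies on chromosome 12 from 89347232 to 89353271 on the minus strand, and an antisense transcript shares 1875 bases with its exons. Its levels of 2.81, 2.79 and 2.81 FPKM in oeSTUB1 lay close together, whereas oeNC had 2.39, 2.76 and 6.02 FPKM. The oeSTUB1 values thus lay above those of 2 control libraries and below the third. The log2 fold change was -0.28 (SE 0.30, 95% interval -0.98 to 0.42, limma adjusted p = 0.58), and without oeNC replicate 3 its direction turned to 0.12 (limma adjusted p = 0.62). The SD was 0.0106 FPKM in oeSTUB1 and 2.00 FPKM in oeNC.

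DUSP4, a nuclear phosphatase of ERK and other MAP kinases, was the most highly expressed of the 10 genes, with 25.7, 27.1 and 33.0 FPKM in oeNC and 30.2, 26.7 and 32.7 FPKM in oeSTUB1. The ranges overlapped almost completely. Its log2 fold change of 0.06 (95% interval -0.21 to 0.34, limma adjusted p = 0.76) did not differ from 0 beyond its error. With both libraries that stand apart left out it was 0.25 (limma adjusted p = 0.028), a fit of 2 libraries against 2 that was chosen after the data were seen.

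Sprouty and Spred proteins inhibit RAS and RAF activation below receptor tyrosine kinases. SPRY2 was at 1.11, 1.62 and 1.86 FPKM in oeNC and at 1.77, 1.74 and 1.87 FPKM in oeSTUB1. The low value of oeNC replicate 1 set it apart from the other 5 libraries, and the log2 fold change of 0.24 (SE 0.18, limma adjusted p = 0.42) was 0.04 (limma adjusted p = 0.89) without that library. SPRY4 was at 1.61, 1.88 and 2.85 FPKM in oeNC and at 1.71, 1.28 and 2.12 FPKM in oeSTUB1, overlapping ranges with a log2 fold change of -0.29 (SE 0.24, limma adjusted p = 0.48). Relative to its mean, SPRY4 varied more within the oeSTUB1 group than the other 9 genes (1.70 ± 0.422 FPKM, SD, n = 3). SPRED1, which brings the RAS inhibitor neurofibromin to the membrane, was at 4.12, 4.44 and 4.96 FPKM in oeNC and at 4.76, 4.47 and 4.56 FPKM in oeSTUB1. Its interval of -0.20 to 0.27 around a log2 fold change of 0.03 was narrow (limma adjusted p = 0.87).

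PHLDA1 lies on chromosome 12 from 76025447 to 76033932 on the minus strand, with antisense transcripts that share 553 and 779 bases with its exons. It was at 10.7, 10.9 and 18.6 FPKM in oeNC and at 17.3, 17.5 and 19.0 FPKM in oeSTUB1. Without the control replicate 3 the oeSTUB1 libraries would all be higher, but that replicate lay among them. The log2 fold change was 0.46 (SE 0.20, 95% interval -0.00 to 0.93, limma adjusted p = 0.17) in all libraries and 0.72 (SE 0.095, limma adjusted p = 0.0083) without oeNC replicate 3. With any other single library left out it was 0.33 to 0.49 and was not called.

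EGR1 lies on chromosome 5 from 138465490 to 138469315 on the plus strand. In oeSTUB1 it was at 0.629, 0.876 and 0.961 FPKM (68, 91 and 103 fragments), which was above the oeNC replicates 1 and 2 and below oeNC replicate 3. The oeNC mean was 1.63 ± 2.06 FPKM against 0.822 ± 0.172 FPKM for oeSTUB1 (SD, n = 3 each), so that the SD of the control exceeded its mean. The log2 fold change of -0.22 had an SE of 0.72 and a 95% interval from -1.89 to 1.45 (limma adjusted p = 0.87). Without oeNC replicate 3 it was 0.76 (SE 0.23, limma adjusted p = 0.11), and neither direction was established.

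**Figure D4:**
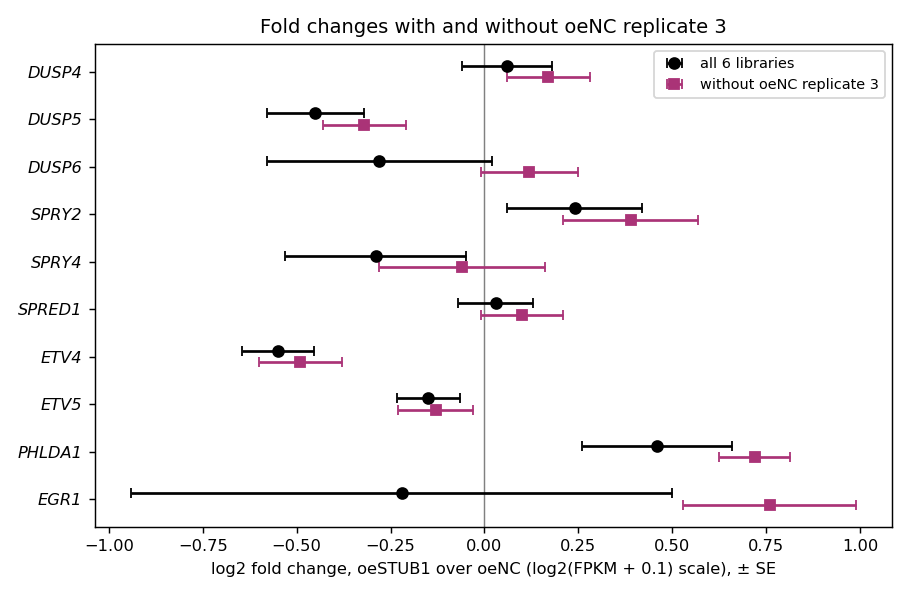
Log2 fold change of oeSTUB1 over oeNC (x axis, log2(FPKM + 0.1) scale) with its SE for the 10 genes, in all 6 libraries (black circles) and without oeNC replicate 3 (purple squares). DUSP6 and EGR1 cross 0 when that library is left out, PHLDA1 moves from 0.46 to 0.72, and ETV4 stays between -0.55 and -0.49.

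The close relatives of the 10 genes are given by family, beside 7.01% of all tested genes called higher and 6.59% called lower. Of 7 other MAP kinase phosphatases tested, DUSP7, which acts on ERK in the cytoplasm, was called higher at a log2 fold change of 0.62 (limma adjusted p = 0.028) and none was lower. Of 3 other Sprouty and Spred genes tested, SPRED3 fell, from 1.44, 1.52 and 1.29 to 0.668, 0.473 and 0.735 FPKM (log2 fold change -1.08, limma adjusted p = 0.0072). Of 8 other ETS factors and the repressor CIC combined, ETS2 (0.68, limma adjusted p = 0.0089) and ELK3 (0.32, limma adjusted p = 0.037) rose. ETV1, the remaining PEA3 factor, was at 1.88 to 2.87 FPKM in oeSTUB1, a range that enclosed the control values. Neither of 2 tested EGR corepressors, NAB1 and NAB2, and neither of 2 other PHLDA genes was called. EGR2 and EGR3 were at or under 0.0111 FPKM in every library.

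Among the 11 further ERK-responsive genes, EPHA4 alone was called, at 0.279 to 0.361 FPKM in oeNC and 0.735, 0.455 and 0.834 FPKM in oeSTUB1 (log2 fold change 0.88, limma adjusted p = 0.045). Of the 7 immediate early genes FOS and ATF3 fell and none rose. FOS, an AP-1 subunit, was at 13.3, 13.3 and 24.1 FPKM in oeNC and at 4.14, 4.42 and 4.44 FPKM in oeSTUB1, a log2 fold change of -1.88 (limma adjusted p = 0.0015) and of -1.60 (limma adjusted p = 0.0011) without oeNC replicate 3. EGR1 and FOS are both known targets of serum response factor, and oeNC replicates 1 and 2 lay below all oeSTUB1 libraries for EGR1 and above them all for FOS. ATF3, a stress-induced factor, was at 2.20, 2.56 and 4.68 FPKM in oeNC and 1.56, 1.02 and 1.04 FPKM in oeSTUB1 (-1.26, limma adjusted p = 0.026), and its adjusted p was 0.052 without oeNC replicate 3, 0.063 without oeNC replicate 2 and 0.073 without oeSTUB1 replicate 3. Without oeNC replicate 3, 9 of the 75 related genes tested over all lists were called lower (background 3.11%) and 4 higher (background 3.67%). The 9 were FOS, SPRED3, KSR1 and the 6 receptor tyrosine kinases that also fell in all libraries, which are given below. The 4 were ETS2, DUSP8, EREG and JUN, of which the last 3 were named after their values were seen. DUSP8 gave log2 fold changes of 0.69 (limma adjusted p = 0.098) in all libraries and 0.96 (limma adjusted p = 0.022) without that library. EREG, an EGF receptor ligand, was at 10.7, 10.8 and 16.9 FPKM in oeNC and 20.6, 17.7 and 18.6 FPKM in oeSTUB1, with log2 fold changes of 0.60 (limma adjusted p = 0.063) and, without that library, 0.81 (limma adjusted p = 0.0078). JUN gave 0.48 (limma adjusted p = 0.40) and, without that library, 0.94 (limma adjusted p = 0.011).

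Upstream of these genes are the receptors that feed the cascade. Of 8 receptor tyrosine kinases tested 6 fell and none rose, beside 6.59% and 7.01% of all tested genes. The receptors were listed with earlier results of these data known, so these shares are no test of them as a set. ERBB3, the kinase-impaired partner of ERBB2, fell from 11.8, 13.8 and 13.7 to 3.45, 2.97 and 5.17 FPKM (log2 fold change -1.77, limma adjusted p = 0.0011). FGFR2 (-1.30), FGFR3 (-1.28) and FGFR4 (-1.25) fell by similar amounts, with adjusted p-values from limma between 0.00026 and 0.0031. FGFR4 was at 38.5 to 40.2 FPKM in oeNC and 14.5 to 18.1 FPKM in oeSTUB1. These falls were also called without oeNC replicate 3. Of the 7 biliary epithelial markers, KRT8 (-0.57), KRT18 (-0.68), EPCAM (-1.13) and CDH1 (-1.09) fell in the same comparison, KRT19 rose (2.47), and KRT7 (0.47) and SOX9 (-0.23) were not called. The part of these markers in the receptor values was not tested.

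Of the 15 cascade genes 2 fell and 1 rose. KSR1, a scaffold for RAF, MEK and ERK, had a log2 fold change of -0.72 (limma adjusted p = 0.0068) and MAPK3, an ERK kinase, of -0.43 (limma adjusted p = 0.028), and MAP2K1, which encodes MEK1, of 0.32 (limma adjusted p = 0.033). None of 6 cascade inhibitors was called, and of 6 kinases that ERK phosphorylates RPS6KA4 was called higher (0.40, limma adjusted p = 0.041). Over all these lists 6 of 75 tested genes were called higher (background 7.01%) and 11 lower (background 6.59%), 6 of the 11 being the receptors, with a median log2 fold change of 0.02, equal to that of all tested genes. The calls of MAPK3, MAP2K1, RPS6KA4, DUSP7, EPHA4 and ELK3 were each lost without any of the 3 oeNC libraries in turn, with adjusted p-values between 0.075 and 0.15. Without oeSTUB1 replicate 1 those of DUSP7 (limma adjusted p = 0.058), ELK3 (0.096), EPHA4 (0.11), MAP2K1 (0.066), MAPK3 (0.078) and RPS6KA4 (0.073) were lost, and without oeSTUB1 replicate 3 those of ELK3 (limma adjusted p = 0.062), EPHA4 (0.12), MAP2K1 (0.052) and MAPK3 (0.080).

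**Figure D5:**
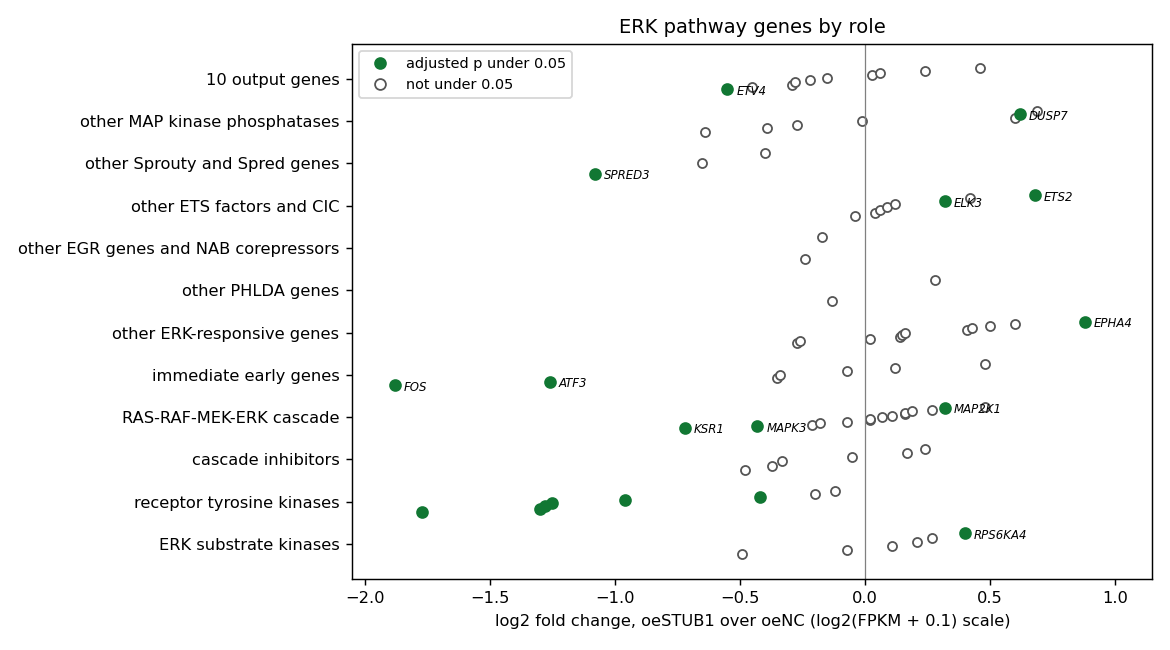
Log2 fold change of oeSTUB1 over oeNC (x axis, log2(FPKM + 0.1) scale) for every tested gene of each list (rows), with green for an adjusted p under 0.05 and open circles for the others. The 10 output genes span -0.55 to 0.46 with ETV4 the 1 green point, and the receptor tyrosine kinases hold 6 green points, all left of 0.

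The genes most like PHLDA1 and ETV4 across the libraries were sought by Pearson correlation of log2(FPKM + 0.1) over the 6 libraries among 11374 genes, as a description, because the libraries share the group difference. PHLDA1 was most like EDN1, which encodes endothelin 1 (r = 0.994), RNF138 (0.993) and CSRNP2 (0.980). EDN1 was at 29.7, 30.5 and 38.2 FPKM in oeNC and 36.8, 37.1 and 37.4 FPKM in oeSTUB1, which repeats the pattern of PHLDA1 with oeNC replicate 3 at the oeSTUB1 level. ETV4 was most like MLPH (0.998), KLHDC2 (0.996) and PKIB (0.995), of which MLPH was at 26.5, 26.8 and 29.1 FPKM in oeNC and 20.5, 22.8 and 21.7 FPKM in oeSTUB1.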

How the data were processed

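RNA-seq of 6 TFK1 libraries (3 oeNC, 3 oeSTUB1) was analysed, with groups from the sample labels. The authors deposited FPKM values for 23569 genes. The submitters' processing notes name fastp 0.20.1, HISAT2 2.1.0, HTSeq 0.11.2, R 3.2.0, DESeq2 1.22.2 and GRCh38.p13, without the role of each. Whole fragments were recovered from the steps of the deposited FPKM values for 23569 genes (100.0%, within 0.01 fragments), and recomputed FPKM differed by at most 4.9e-06. Totals were 33106564 to 36744521 fragments, 99.7% of them on listed genes.

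log2(FPKM + 0.1) was fitted with limma 3.58.1 in R 4.3.3 (lmFit, eBayes with an intensity trend, two-sided) for the 15353 genes whose mean reached 0.1 FPKM, with Benjamini-Hochberg adjustment over all of them. Genes with an adjusted p under 0.05 were called. Fold changes on this scale understate changes of low genes. Exact permutation tests were two-sided. The recovery of fragments and the limma fit were tested on simulated data in which no library stood apart, and the permutation test was not. Poisson intervals cover counting error only. The settings varied were the pseudocount (1 and 0.01), the filter (none, or a mean of 1 FPKM), the scaling (median-ratio, quantile), the trend (none), a replicate block, each library left out, limma-voom on recovered fragments, and, added after seeing the data, 2 libraries left out.

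The 10 genes and the lists were chosen with earlier results of these data known, and 2 genes of the cascade are not reported here. Named were these genes, STUB1, up to 4 called genes with the largest change per list, marker genes, and the 3 genes most like the most significant higher and lower gene; exceptions are marked in the text. Promoter windows came from RefSeq (GRCh38.p14) and gene coordinates from GENCODE release 29. Other plots and steps used Python 3.11.15.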

Additional observations from a re-analysis of the deposited data

How the results depend on the processing

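Over the alternatives for the 10 genes, 143 values kept their direction and side of the threshold, 8 passed it where the reported value did not, and 9 turned direction. DUSP4 gave -0.01 with quantile normalization. When 1 library was left out, DUSP4 gave -0.01 (without oeNC replicate 1) to 0.17, with -0.00 without oeSTUB1 replicate 3, DUSP6 gave -0.53 to 0.12, SPRY4 -0.45 to -0.06, SPRED1 -0.03 (without oeNC replicate 1) to 0.10, and EGR1 -0.77 to 0.76. The turn of DUSP6 and EGR1 came without oeNC replicate 3, and with oeSTUB1 replicate 2 left out as well DUSP4 gave 0.25, DUSP6 0.12, SPRY4 0.12 and EGR1 0.71. The number of the 10 genes called lower was 2 with limma-voom, median-ratio scaling and quantile normalization, and 1 to 2 when 1 library was left out. The number called higher was 0 to 1 when 1 library was left out. With oeNC replicate 3 and oeSTUB1 replicate 2 left out, 2 genes were called higher and 2 lower. Of the 75 related genes, those called higher numbered 3 without a trend, 3 with limma-voom and 3 without a filter, 1 to 17 when 1 library was left out and 20 when 2 were, and those called lower 8 to 15 when 1 library was left out. Over all genes, 477 to 2274 were called higher and 456 to 1838 lower when 1 library was left out, and 2084 and 1557 when 2 were. For the 15 named related genes 49 values lost their call, 190 kept it and none turned direction. Same-numbered libraries deviated together with correlations of -0.05, -0.05 and 0.06, so the numbers were not taken to pair libraries, and a replicate block gave 2 related genes called higher and 11 lower, 0 and 1 of the 10 genes, and 741 higher and 747 lower over all genes. The fits without a library have fewer residual degrees of freedom. With 43 to 103 fragments in 5 of 6 libraries, EGR1 is the gene most limited by depth.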

Other observations

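Among the other genes that stood highest in oeNC replicate 3 against the rest of the control were some known from stress responses, and those named here were chosen after their values were seen. DDIT3, which encodes the factor CHOP, ranked 2nd of 11375 genes after EGR1, with 4.87, 3.87 and 20.9 FPKM in oeNC and 3.99, 6.74 and 3.63 FPKM in oeSTUB1. PPP1R15A, a phosphatase subunit that restores translation after stress, was at 11.1, 9.86 and 25.6 FPKM in oeNC and 10.5, 11.4 and 11.9 FPKM in oeSTUB1. SESN2 was at 2.75, 2.36 and 6.24 FPKM in oeNC and GADD45B at 23.3, 23.8 and 54.0 FPKM. TSC22D3, a glucocorticoid-responsive gene, was at 1.97, 2.12 and 6.22 FPKM in oeNC. None of these 5 genes was called between the groups. What set oeNC replicate 3 apart was not tested.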
